A study of Ricinus communis with 6 samples.

Results

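The castor bean (Ricinus communis) genes of the CYP726A subfamily of cytochrome P450s were followed across 6 RNA-seq libraries of the stem internode. Members were taken by gene ID and RefSeq name: LOC8259972 (CYP726A13), LOC8259976 (CYP726A15), LOC8259978 (CYP726A16), LOC8259980 (CYP726A17) and LOC8259983 (CYP726A18), 5 of the 18875 gene rows of the expression table. CYP726A14 is not analysed here. Libraries D1, D2 and D3 came from the dwarf variety 071113, whose labels give a short stalk. Libraries L1, L2 and L3 came from the high-stalk variety Zhuansihao, which is spelled Zhansihao in the genotype labels. Both varieties grew in the field and were sampled when they had 8 to 10 leaves, from about 6 dissected plants. The libraries of a variety are described by the study as biological replicates. The labels do not say which plants went into which library, and p-values therefore measure the spread between these libraries. The 2 varieties are whole genotypes, and no single locus is set apart by the design.

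Cytochrome P450s are heme enzymes that insert oxygen into their substrates with electrons from a P450 reductase. In castor, casbene is a macrocyclic diterpene made from geranylgeranyl diphosphate by casbene synthase and known as a phytoalexin, a compound formed against microbes. CYP726A enzymes oxidise casbene and the related diterpene neocembrene, and their genes lie near each other in the castor genome.

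Transcript levels are given as FPKM computed by the authors (fragments per kilobase of transcript, corrected for how many fragments of a library were mapped). They take transcript length into account and so can be set side by side between genes. The number of reads is unknown. The relative depth of the libraries, taken from steps in their low values, lay between 0.868 and 1.08 of that of D1, and FPKM totals lay between 585381 and 600050. D2 stood apart from the other dwarf libraries: over 16236 genes, its log2(FPKM + 1) values had a Pearson correlation of 0.792 with D1, 0.808 with D3 and 0.958 with L1. L1 was in turn closer to D2 than to L2 (0.932) or L3 (0.927). The authors left D2 out of their differential test, so D1 and D3 were compared here with L1 to L3, and the same comparison over all 6 libraries stands beside it. In bulk tissue, fewer cells of a type and less RNA per cell cannot be told apart.

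CYP726A17, CYP726A13 and CYP726A18 had more transcript in D1 and in D3 than in any Zhuansihao library, and CYP726A16 had less. Among all genes tested, 25.5% had D1 and D3 above and 32.8% below all Zhuansihao libraries. CYP726A18 and CYP726A13 were called higher in D1 and D3, beside 1.34% of all genes tested. Both needed these libraries to come into the test. With no filter on low values, CYP726A18 was called and CYP726A13 was not. CYP726A16 and CYP726A17 were not called in either direction. CYP726A15 was near 0 in every library. On the log2(FPKM + 1) scale, D2 lay nearer to the Zhuansihao mean than to that of D1 and D3 for all 5 genes. The share of all genes that do so was not counted, and D2 was also closer to L1 than to D1 or D3 over all genes. For CYP726A15, D2 (0.0377 FPKM) was close to D3 (0.0366 FPKM). With D2 included none of the genes passed the test, beside 0% of all genes tested called higher and 0.0123% called lower.

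**Figure D1:**
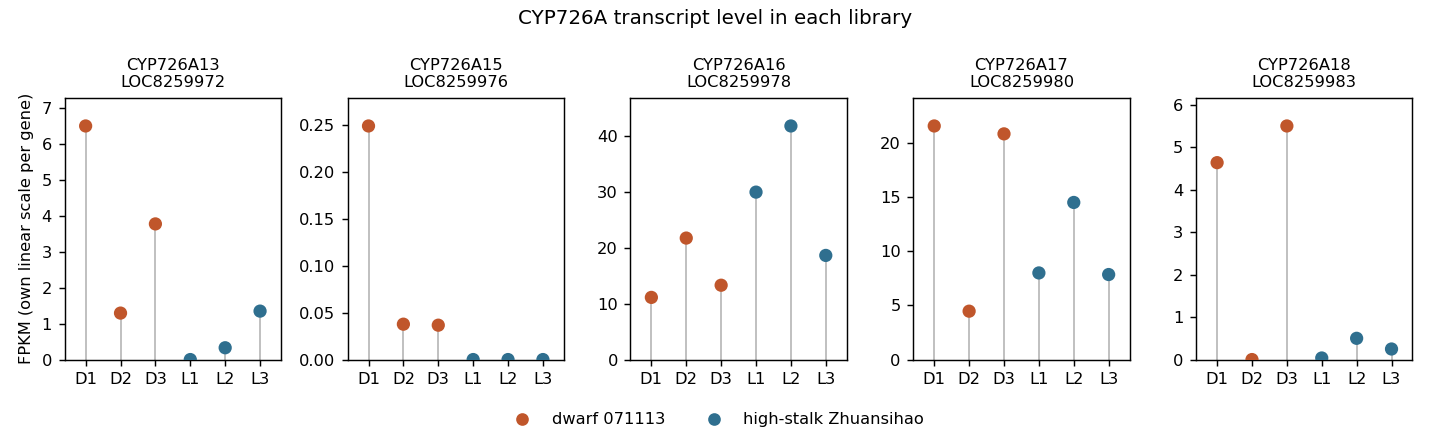
FPKM (vertical axis, a linear scale of its own for each gene) of the 5 CYP726A genes in each library (horizontal axis), with a point for each library, dwarf 071113 left and high-stalk Zhuansihao right. D2 lies apart from D1 and D3 for CYP726A16, CYP726A17 and CYP726A18.

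CYP726A17, an oxidase of casbene, had 21.6, 4.47 and 20.8 FPKM in D1, D2 and D3, against 8.00, 14.5 and 7.85 FPKM in L1, L2 and L3. D1 and D3 were above each Zhuansihao library, and D2 was below all of them. The mean was 21.2 ± 0.515 FPKM in D1 and D3 (SD, n = 2) and 10.1 ± 3.80 FPKM in Zhuansihao (SD, n = 3), a ratio of 2.10. With D2, the dwarf mean was 15.6 ± 9.68 FPKM (SD, n = 3). The share of gene rows with a lower FPKM than CYP726A17 was 65.5%, 28.3% and 64.1% in D1, D2 and D3, against 37.6%, 53.0% and 38.6% in L1, L2 and L3.

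CYP726A18, which also oxidises casbene, had at most 0.5002 FPKM outside D1 and D3. It had 4.64 and 5.50 FPKM in D1 and D3 and was listed at 0 in D2, against 0.0368, 0.5002 and 0.248 FPKM in L1, L2 and L3. The mean was 5.07 ± 0.611 FPKM in D1 and D3 (SD, n = 2) and 0.262 ± 0.232 FPKM in Zhuansihao (SD, n = 3), a ratio of 19.4 that rests on values near 0. With 1 library left out the ratio lay between 13.5 (without L1) and 35.5 (without L2). D2 was below every Zhuansihao library.

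CYP726A16, which epoxidises an oxidised casbene, ran the other way. It had 11.1, 21.7 and 13.3 FPKM in D1, D2 and D3, against 30.0, 41.8 and 18.6 FPKM in L1, L2 and L3. D1 and D3 were below each Zhuansihao library, while D2 lay above L3, so the varieties overlapped once D2 was counted. The mean was 12.2 ± 1.54 FPKM in D1 and D3 (SD, n = 2), or 15.4 ± 5.61 FPKM in all dwarf libraries (SD, n = 3), and 30.1 ± 11.6 FPKM in Zhuansihao (SD, n = 3). The Zhuansihao mean was 2.47 times that of D1 and D3.

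CYP726A13 had 6.49, 1.29 and 3.77 FPKM in D1, D2 and D3. In Zhuansihao it was listed at 0 in L1 and had 0.328 and 1.35 FPKM in L2 and L3. D1 and D3 were above all Zhuansihao libraries, and D2 was just under L3. CYP726A15, an oxidase of neocembrene, had 0.249, 0.0377 and 0.0366 FPKM in D1, D2 and D3 and was listed at 0 in L1, L2 and L3. It was the only member whose varieties did not overlap with D2 included, at values near 0 and too low to enter the test. How many genes below the filter do the same was not counted.

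Within a library, FPKM ranked the members differently in D1 and D3 than in the other 4 libraries. In D1 and D3, CYP726A17 was first and CYP726A16 second, and their means differed by more than the spread of either. CYP726A13 (mean 5.13 ± 1.92 FPKM, SD, n = 2) and CYP726A18 followed and did not differ beyond their spread. In Zhuansihao and in D2, CYP726A16 was first and CYP726A17 second. CYP726A13 and CYP726A18 overlapped in Zhuansihao, at or below 1.35 FPKM.

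The ratio of CYP726A17 to CYP726A16, taken within each library and so free of its scaling, was 1.94, 0.206 and 1.57 in D1, D2 and D3, against 0.267, 0.347 and 0.422 in L1, L2 and L3. CYP726A17 was thus above CYP726A16 in D1 and D3 and below it in the other 4 libraries, with the lowest ratio in D2. CYP726A17 made up 49.0%, 16.2% and 48.0% of the summed FPKM of the 5 genes in D1, D2 and D3, against 21.1%, 25.4% and 28.0% in L1, L2 and L3. CYP726A16 made up 25.2%, 78.9% and 30.6% in the dwarf libraries, against 78.8%, 73.1% and 66.3% in the Zhuansihao libraries. CYP726A13 and CYP726A18 were 14.7% and 10.5% of the sum in D1 and 8.67% and 12.7% in D3. In D2 they were 4.69% and 0%, and neither was above 4.79% in any Zhuansihao library.

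The summed FPKM of the 5 genes did not separate the varieties. It was 44.1, 27.5 and 43.5 in D1, D2 and D3, against 38.0, 57.1 and 28.1 in L1, L2 and L3. The mean sum was 43.8 ± 0.438 in D1 and D3 (SD, n = 2), or 38.4 ± 9.38 in all dwarf libraries (SD, n = 3), and 41.1 ± 14.8 in Zhuansihao (SD, n = 3), differences well within the Zhuansihao spread. Members of a subfamily can be alike in sequence, and how the authors assigned reads that fit several genes is not given in the sources used here, so the split between members carries that uncertainty.

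**Figure D2:**
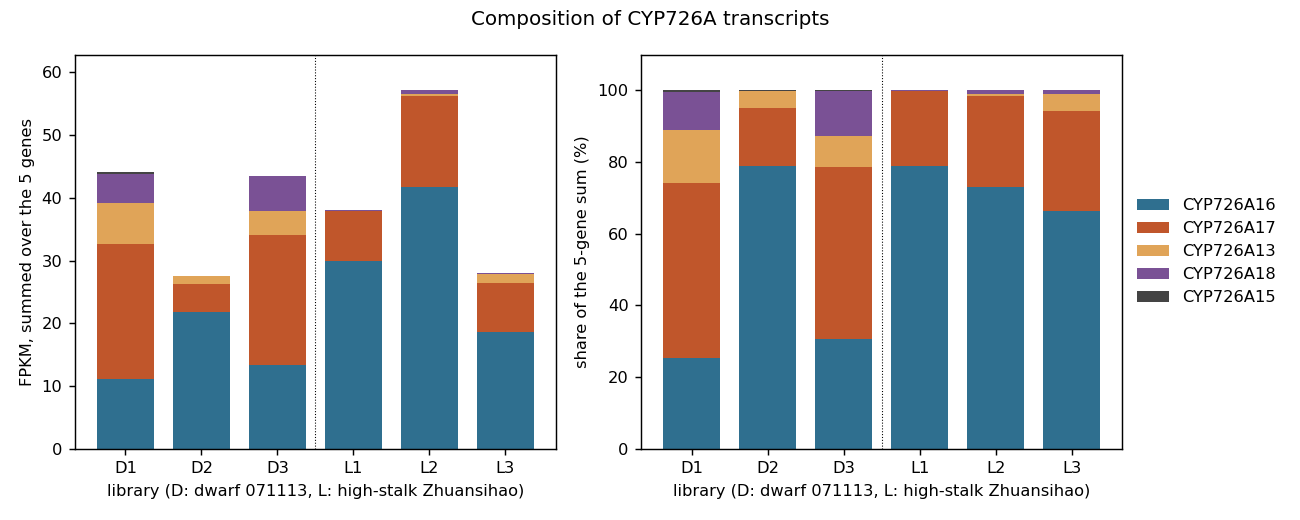
Summed FPKM of the 5 CYP726A genes (left panel) and the percent share of each gene in that sum (right panel) in each library, with dwarf 071113 left of the dotted line and high-stalk Zhuansihao right of it. CYP726A17 is the largest part in D1 and D3 and CYP726A16 in D2 and the Zhuansihao libraries, where it is at least 66.3%.

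Across the 6 libraries, CYP726A17 and CYP726A18 followed each other closely, with a Pearson correlation of log2(FPKM + 1) of 0.89 (n = 6 libraries). CYP726A13 correlated with CYP726A18 at 0.85 and with CYP726A15 at 0.80. CYP726A16 ran against each of the others, at -0.93 with CYP726A13, -0.75 with CYP726A18, -0.69 with CYP726A15 and -0.41 with CYP726A17. These are descriptions of 6 libraries that share their tissue and fall into D1 and D3 on one side and the rest on the other, and no p is given.

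The difference between varieties was then tested for each gene with limma on log2(FPKM + 1), dwarf over Zhuansihao, a scale that understates the change of low genes. Testing was limited to genes that reached 1 FPKM in 2 or more compared libraries, and p-values were adjusted over all of them by the Benjamini-Hochberg method. A call needed both an adjusted p below 0.05 and a log2 fold change no smaller than 2 in size. Of the 5 members 4 entered the test, and 2 were called higher in D1 and D3 and 0 lower. Among all 15925 genes tested, 1.34% were called higher and 1.19% lower. The median log2 fold change of the 4 tested members was 1.54, beside -0.06 over all genes tested. CYP726A18 passed the filter only through D1 and D3, where it was high. CYP726A13 needed D1 or D3 as well, since only L3 of the Zhuansihao libraries reached 1 FPKM. The count, the median and the filtered p of both genes are therefore descriptions.

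CYP726A18 was higher in D1 and D3 by 2.28 on the log2 scale (SE 0.25, limma adjusted p = 0.0143). With no filter, so that its own level did not decide its entry, the limma adjusted p was 0.0137 (SE 0.20), beside 1.08% of 18770 genes called higher and 0.89% called lower. CYP726A13 rose by 2.03 (SE 0.44, limma adjusted p = 0.0448), just past both thresholds. With no filter its limma adjusted p was 0.0509 (SE 0.43), and it was not called. CYP726A17 differed by 1.05 on the log2 scale (SE 0.28, limma adjusted p = 0.0674) and CYP726A16 by -1.17 (SE 0.34, limma adjusted p = 0.0798), neither of which passed. CYP726A15 was not tested, and with no filter its log2 fold change was 0.19 (SE 0.10, limma adjusted p = 0.250). The D1 and D3 values of the 4 tested members lay outside the Zhuansihao range, 3 above and 1 below, beside 25.5% of all genes tested above and 32.8% below.

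Over all 6 libraries, limma called 0 of the 4 tested members, beside 0% of 16236 genes called higher and 0.0123% called lower. At an unadjusted p under 0.05 there was 1 member higher, CYP726A13, and 1 lower, CYP726A16, beside 5.14% of all genes tested higher and 4.17% lower. The log2 fold change was 1.57 for CYP726A13 (SE 0.54, limma adjusted p = 0.481) and -0.91 for CYP726A16 (SE 0.36, limma adjusted p = 0.530). It was 1.41 for CYP726A18 (SE 0.76, limma adjusted p = 0.626) and 0.38 for CYP726A17 (SE 0.61, limma adjusted p = 0.873). The standard errors of CYP726A17 and CYP726A18 more than doubled with D2. Among all genes tested, 7.44% had all dwarf libraries above and 7.41% all dwarf libraries below each Zhuansihao library, and of the tested members 0 did.

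**Figure D3:**
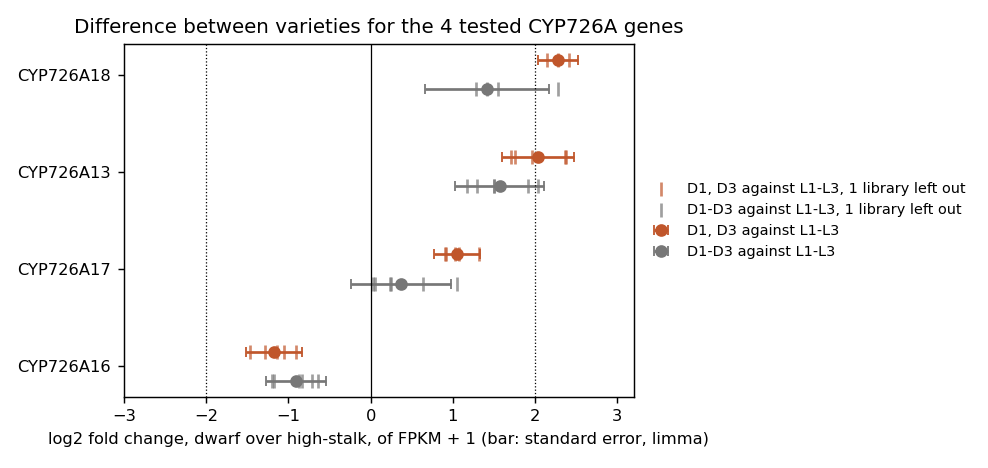
Log2 fold change of FPKM + 1, dwarf over Zhuansihao (horizontal axis), for the 4 tested CYP726A genes. Points with bars are limma estimates with their standard errors, for D1 and D3 against L1 to L3 (orange) and for all 6 libraries (grey), ticks are estimates with 1 library left out, solid and dotted lines stand at 0 and at the fold thresholds. CYP726A18 and CYP726A13 lie past 2 only without D2, and CYP726A16 is the only gene below 0.

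The CYP726A13 call was lost without L1 (limma adjusted p = 0.0585) or L2 (0.0966). It was also lost without D1 (0.282) or D3 (0.177), where limma called 0 genes of the whole table, so that loss is not particular to CYP726A13. The call was lost as well with a pseudocount of 0.5 (adjusted p = 0.0545) or 0.1 (adjusted p = 0.0932) and with no filter (adjusted p = 0.0509). CYP726A18 stayed called without L1, L2 or L3, at log2 fold changes of 2.15 to 2.41, but entered these fits only through D1 and D3. It had no value without D1 or D3, since it then fell below the filter.

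In the RefSeq gene order, the members lay together as CYP726A18, CYP726A17, CYP726A16, CYP726A15 and CYP726A13. There was 1 other gene between CYP726A18 and CYP726A17, 2 between CYP726A17 and CYP726A16, 0 between CYP726A16 and CYP726A15, and 3 between CYP726A15 and CYP726A13, among them CYP726A14. With 10 genes beyond each end, the stretch held 31 genes, of which 26 were not members and 17 of these were analysed. Genes that rose and genes that did not lay side by side in it. Of the 12 neighbours tested in D1 and D3 against Zhuansihao, 3 were called higher and 0 lower, beside 1.34% and 1.19% of all genes tested, and the median log2 fold change of the 12 was -0.09. All 3 of those called entered the test only through D1 and D3, where they were high. This count and their filtered p are therefore descriptions. The 3 genes were also called with no filter, where 3 neighbours were called. None of the 3 has a name in RefSeq.

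LOC8259985, beyond the CYP726A18 end, had 14.2 and 15.1 FPKM in D1 and D3 and was listed at 0 in D2. In Zhuansihao it was listed at 0 in L1 and had 0.667 and 0.121 FPKM in L2 and L3. It rose in D1 and D3 by 3.67 on the log2 scale (SE 0.28, limma adjusted p = 0.00828, or 0.0121 with no filter). Next to it, LOC8259986 had 5.26, 0.508 and 8.07 FPKM in D1, D2 and D3, against 0.413, 0.748 and 0.273 FPKM in L1, L2 and L3. It rose by 2.36 (SE 0.27, limma adjusted p = 0.0150, or 0.0163 with no filter). In both genes, D2 lay within the Zhuansihao range.

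LOC8259973, next to CYP726A13, had 5.70, 0.315 and 9.95 FPKM in D1, D2 and D3. It was listed at 0 in L1 and had 0.190 and 0.117 FPKM in L2 and L3. It rose by 2.96 (SE 0.28, limma adjusted p = 0.0114, or 0.0130 with no filter). LOC8259973 was the one tested gene between members that is no member. D2 was also above all Zhuansihao libraries, at values near 0. Among all genes tested over 6 libraries, 7.44% had all dwarf libraries above each Zhuansihao library. Over all 6 libraries the difference of 2.06 did not pass (SE 0.79, limma adjusted p = 0.511). These 3 neighbours had no value without D1 or without D3, and 0 of them were called over all 6 libraries.

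Of the other 9 tested neighbours, log2 fold changes lay between -1.14 and 0.09. LOC8259968, beyond CYP726A13, had 24.8, 56.0 and 31.6 FPKM in D1, D2 and D3, against 54.8, 65.1 and 70.4 FPKM in L1, L2 and L3. Its log2 fold change of -1.14 (SE 0.16, limma adjusted p = 0.0201) passed the p threshold but not the fold threshold. LOC8259989 had 4.56, 4.28 and 7.17 FPKM in D1, D2 and D3, against 7.83, 15.9 and 9.47 FPKM in L1, L2 and L3, with no overlap and with a log2 fold change of -0.78 (SE 0.34, limma adjusted p = 0.168). LOC8259964 did not overlap either, at 19.1 to 23.9 FPKM in the dwarf libraries and 24.6 to 25.3 FPKM in Zhuansihao. Its log2 fold change was -0.32 (SE 0.09, limma adjusted p = 0.0805). Among all genes tested over 6 libraries, 7.41% had all dwarf libraries below each Zhuansihao library. The gene between CYP726A18 and CYP726A17, LOC8259981, reached 1.07 FPKM in D3 and at most 0.173 FPKM in any other library, and was not tested.

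**Figure D4:**
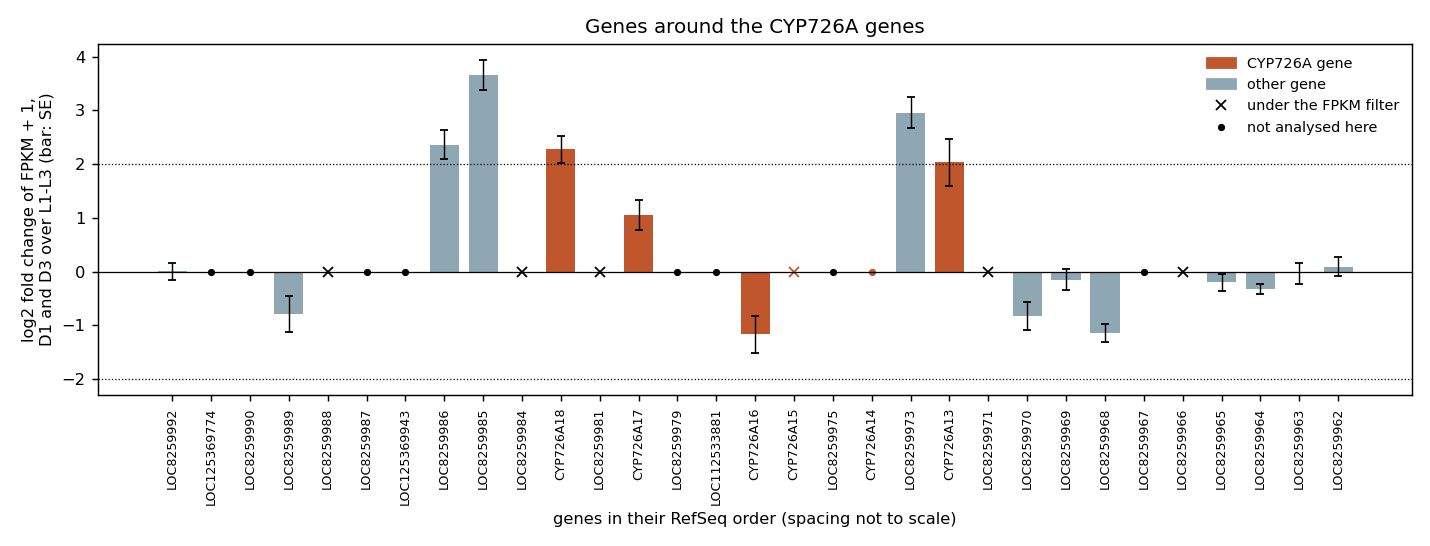
Log2 fold change of FPKM + 1, D1 and D3 over L1 to L3 (vertical axis), for the 31 genes in their RefSeq order (horizontal axis, spacing not to scale). Bars are limma estimates with standard errors, crosses mark genes under the FPKM filter, points mark genes not analysed here, and dotted lines mark the fold thresholds. LOC8259986, LOC8259985, CYP726A18, LOC8259973 and CYP726A13 lie above 2, with CYP726A16 at -1.17 between them.

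Other terpenoid genes were sought by RefSeq name, and 5 terpene cyclase genes had one. None of these names spells out casbene synthase or neocembrene synthase, which are not analysed here. Of the 5, only RcCAS (LOC8262543) was tested, and 0 were called. The list of names sought used CAS for cycloartenol synthase. RefSeq gives RcCAS as a symbol alone, and which cyclase it denotes was not settled here, so its values are not read as those of casbene synthase. RcCAS had 10.7, 56.1 and 12.9 FPKM in D1, D2 and D3, against 45.0, 20.8 and 25.0 FPKM in L1, L2 and L3. It was lowest in D1 and D3, and the log2 fold change was -1.22 (SE 0.34, limma adjusted p = 0.0726), or -0.50 over all 6 libraries (SE 0.66, limma adjusted p = 0.844). The 4 sesquiterpene synthases were low in all libraries. The highest of them, TPS5 (LOC8282476), had 0.0390 and 0.264 FPKM in D1 and D2 and was listed at 0 in D3, against 0.599, 0.917 and 1.19 FPKM in L1, L2 and L3.

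The 3 genes most like each of the 4 tested members over the 6 libraries, by Pearson correlation of log2(FPKM + 1) among 16236 genes, have no name in RefSeq. For CYP726A18 they were LOC8268864, LOC8269485 and LOC8278795, with correlations of 0.999, 0.998 and 0.998. A high correlation does not mean a change of like size. LOC8268864 had 17.4, 12.6 and 17.9 FPKM in D1, D2 and D3, against 12.9, 13.7 and 13.4 FPKM in L1, L2 and L3. Without D2 its log2 fold change was 0.38 (SE 0.10, limma adjusted p = 0.0726), and it was not called. LOC8269485 had 30.5, 0.139 and 29.7 FPKM in D1, D2 and D3, against 0.116, 1.22 and 0.532 FPKM in L1, L2 and L3. LOC8278795 had 83.6, 14.2 and 86.0 FPKM in D1, D2 and D3, against 14.2, 21.7 and 19.7 FPKM in L1, L2 and L3. LOC8269485 and LOC8278795 had D1 and D3 high and D2 close to the lowest Zhuansihao value.

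For CYP726A17 the 3 were LOC8262390, LOC8280735 and LOC8273781, with correlations of 0.998, 0.996 and 0.995. LOC8262390 had 62.4, 16.5 and 58.9 FPKM in D1, D2 and D3, against 25.1, 40.8 and 26.7 FPKM in L1, L2 and L3. Its 3 highest libraries, D1, D3 and L2, and its lowest, D2, were those of CYP726A17. For CYP726A13 they were LOC8262414, LOC8284262 and LOC8281218, at 0.996, 0.993 and 0.991. Their means in D1 and D3 were only 1.53, 1.17 and 1.23 times those in Zhuansihao. For CYP726A16 they were LOC8271122, LOC8289657 and LOC8268714, at 0.993, 0.990 and 0.990. LOC8271122 had 61.3, 101 and 66.6 FPKM in D1, D2 and D3, against 138, 160 and 92.4 FPKM in L1, L2 and L3. These are the highest of 16236 correlations, each over 6 libraries, and are given as a description.

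Markers were sought to check the tissue, and 5 could be matched by ID or name. The phloem sucrose carrier SUT1 (LOC8262746) had 344, 73.6 and 296 FPKM in D1, D2 and D3, against 153, 406 and 245 FPKM in L1, L2 and L3, with no separation of the varieties. It was lowest in D2, as CYP726A17 and CYP726A18 were. The seed regulator RcABI3 (LOC8262764) was listed at 0 in every library but D1, which had 0.244 FPKM. Expansins loosen the cell wall. The 3 matched, LOC8262087 (EXPB3), LOC8282200 (EXPA4) and LOC8278145 (EXLA2), had D1 and D3 below all Zhuansihao libraries, beside 32.8% of all genes tested. In each of them D2 was above D1 and D3. The authors already report these expansins as lower in the dwarf, from the same libraries and with the outlying dwarf library left out. Their direction was thus known beforehand, so they are no independent check of the tissue. EXPB3 had 13.9, 52.9 and 5.51 FPKM in D1, D2 and D3, against 66.9, 33.9 and 53.8 FPKM in L1, L2 and L3, and was called lower in the dwarf pair (log2 fold change -2.36, SE 0.45, limma adjusted p = 0.0350). EXPA4 (-2.60, SE 0.67, limma adjusted p = 0.0635) and EXLA2 (-1.23, SE 0.52, limma adjusted p = 0.162) were not called. The part of tissue composition in the CYP726A differences was not tested.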

How the data were processed

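Poly(A) RNA of 6 castor internode libraries was sequenced by the authors, who deposited FPKM per gene and library, D2 included and replicates not pooled. Which aligner, build, annotation and counter they used is not given in the sources used here. Their own test ran on read counts, and these cannot be had from FPKM.

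Values were analysed as log2(FPKM + 1) in R 4.3.3, by limma 3.58.1 and its mean-variance trend. The remaining steps used matplotlib 3.10.9, numpy 2.4.6 and pandas 2.3.3 under Python 3.11.15. Fits covered every gene row with at least 1 FPKM in at least 2 compared libraries. They were also run on simulated data, in which only genes with a higher mean level than any member were changed. That run is therefore no check of fits at the level of the members. RefSeq (ASM1957865v1) matched 18431 of 18875 rows and gave only names and gene order. The low values used for relative depth were those under 0.5 FPKM. The genes named are the members, named terpenoid genes, neighbours with at least 1 FPKM in at least 2 libraries, and the 3 genes most like each member. LOC8259981 was added after its values were seen. Members and lists were chosen with earlier results of these data known. Protein identity, P450 relatives and promoter motifs were planned and are not analysed here. Alternatives were other pseudocounts, filters, scalings, variance priors and thresholds, the replicate number as a block, and each library left out.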

Additional observations from a re-analysis of the deposited data

How the results depend on the processing

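The 4 tested members and LOC8259973, LOC8259985, LOC8259986 and LOC8259968 kept the sign of their fold change under every alternative that gave them a value; CYP726A15 and the other neighbours were not followed. For D1 and D3 against Zhuansihao, the number of members called, 2, fell to 1 with a pseudocount of 0.5, with 0.1 and with no filter, and ranged from 0 to 2 with 1 library left out (0 without D1 or D3, 1 without L1 or L2, 2 without L3). The 3 neighbours called were 0 to 3 with 1 library left out. Over all genes, 403 were called, 674 with a pseudocount of 0.1, 2090 by adjusted p alone, and 0 to 364 with 1 library left out (0 without D1 or D3, with 1261 and 1323 higher and 1449 and 1676 lower at an unadjusted limma p under 0.05). Over all 6 libraries, leaving out 1 library gave 0 to 2 members, 0 to 3 neighbours and 0 to 403 genes, against 0, 0 and 2 with all of them. The upper values are those without D2.

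With the replicate number as a block, 0 members, 0 neighbours and 0 genes were called in D1 and D3 against Zhuansihao, and 0 genes over all 6 libraries, though 1991 genes were higher and 2593 lower at an unadjusted limma p under 0.05 in the 5-library fit. CYP726A18 had an adjusted p of 0.0667 in that fit. A block fit of 5 libraries leaves little from which to estimate the spread. Deviations of same-numbered libraries from the mean of their variety had correlations of -0.47, -0.55 and 0.33, while D2 and L1 reached 0.63. With so few libraries and D2 standing apart, these values cannot decide whether the numbers pair the samples. With D1 or D3 left out, the lone dwarf library is assumed to vary like the Zhuansihao libraries. FPKM gives no read numbers, so no counting interval stands beside values near 0.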
